A study of Mus musculus with 6 samples.

Results

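The ligands of the tumour necrosis factor (TNF) superfamily measured here were 9 genes, Lta, Ltb, Tnf, Tnfsf8, Tnfsf10, Tnfsf11, Tnfsf14, Fasl and Cd70. They were chosen by name, and all 9 had a row among the 25654 genes with a value. These genes, and the lists and motifs below, were chosen with earlier results of these data known. Their shares, set beside those of all genes or promoters, are therefore descriptions only. The cells were wild-type CD8 T cells from spleens of female C57BL/6 mice, prepared with an isolation kit, and the labels give all libraries the same treatment. They were stimulated for 2 days with plate-bound antibodies to the T cell receptor beta chain (3 µg/ml) and to CD28 (1 µg/ml) in interleukin 2 (10 ng/ml), then kept for 5 days in interleukin 2 alone. Young cells came from mice of 6 weeks and aged cells from mice of around 65 weeks, with 3 libraries in each group. The labels call these biological replicates without tying each to a mouse of its own, so the p-values measure the spread between these libraries, which may be technical. Each age was cultured as its own set of cells, and age and any difference in culture cannot be told apart.

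Ligands of this family are mostly membrane proteins that act as trimers on receptors of the TNF receptor superfamily, and some are cut from the surface or secreted. Their receptors signal through TRAF adaptors to NF-kB and MAP kinases, and those with a death domain can start apoptosis. In CD8 T cells the best known roles are killing of target cells by FAS ligand and TRAIL, inflammation by TNF, organisation of lymphoid tissue by the lymphotoxins, and costimulation by CD30 ligand, CD70 and LIGHT. Several of these genes are switched on by stimulation of the T cell receptor, and the cells here had been without that stimulus for the last 5 days.

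Levels are given in CPM, the reads of a gene scaled to the same total in every library. The libraries read only the 3' end of each transcript, so a level counts transcript ends and needs no scaling by gene length. Totals ran from 1952552 to 2785915 reads, and 1 read was worth 0.359 to 0.512 CPM. Where a library has no read of a gene, up to 3 reads, worth 1.08 to 1.54 CPM, would be within its counting limit, and this limit covers counting error only. The labelled cell type was checked against its markers. Cd3e was at 223 to 231 CPM in young and 156 to 179 CPM in aged libraries, Cd8a at 266 to 276 and 244 to 344 CPM, and Cd4 at 0 to 0.384 CPM in all 6. Of the 8 T cell markers, all tested, 5 fell in aged cells (Cd3d, Cd3e, Cd3g, Cd2 and Cd8b1). The list had a median log2 fold change of -0.37. For comparison, 12.5% of the genes tested fell and 16.2% rose, and the median over them was 0.03. The other marker lists below had at most 3 tested members each, too few to set against these shares. The summed level of the 8 T cell markers was 2479 to 2571 CPM in young and 1916 to 2113 CPM in aged libraries. Several defining markers of other cells were at 0 in every library, among them Cd79a, Ms4a1 and Pax5 of B cells, Lyz2 and Adgre1 of myeloid cells, and Flt3, Siglech and Clec9a of dendritic cells. Others were detected and not lower in aged cells. Csf1r had 15 reads in Aged replicate 3 and 0 in the other 5 libraries (limma adjusted p = 0.292), Itgax had 0 to 4 reads in young and 4 to 6 reads in aged libraries (limma adjusted p = 0.155), and Cd14 had 0 to 2 and 1 to 7 reads and was not tested. The lists of B cell, myeloid and dendritic markers nevertheless had 1 of 1, 2 of 3 and 1 of 3 tested members lower in aged cells (Cd79b, Cd68 and Itgam, and Xcr1), with summed levels of 3.59 to 9.99, 14.6 to 21.7 and 27.3 to 44.3 CPM in young and 0 to 2.82, 8.19 to 19.8 and 12.7 to 18.9 CPM in aged libraries. Of 2 natural killer markers tested 1 was higher, Klre1, with summed levels of 21.5 to 30.4 and 25.7 to 35.3 CPM. In the lists of CD4 T cell and of red cell and platelet markers, Zbtb7b (1 of 1 tested) and Hbb-bt (1 of 2 tested) were lower, with summed levels of 18.8 to 23.3 and 7.39 to 15.8 CPM in young and 8.94 to 17.9 and 0.767 to 2.56 CPM in aged libraries. Without Young replicate 1 the calls of Cd68, Itgam and Zbtb7b were lost (log2 fold changes of -0.61, -1.25 and -0.63). Cd68 also lost its call without Young replicate 2, Aged replicate 1 or Aged replicate 2 (-0.70, -0.61 and -0.64), Itgam without Young replicate 3 or Aged replicate 1 (-1.38 and -1.24), and Zbtb7b without Young replicate 2 or Aged replicate 3 (-0.62 and -0.48). With DESeq2 the calls of all 3 were lost too (-0.84, -2.82 and -0.76), and Cd68 also lost its call with no filter on low values (limma adjusted p = 0.0671). The part of these other transcripts in the ligand differences below was not tested.

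The comparison asks how the ligand genes of activated CD8 T cells differ with the age of the mouse. Lta, Ltb and Tnfsf8, the most abundant ligands, were 2.34-fold, 3.56-fold and 2.39-fold lower in aged cells, and Tnfsf11, which encodes RANKL, was 3.10-fold higher. Tnf, Fasl, Tnfsf10 and Tnfsf14 did not pass the test, and Cd70 was too low to be tested. A test was made on log2(CPM + 1) with limma across all 10511 genes averaging 1 CPM or more, with p-values adjusted over all of them by Benjamini-Hochberg, and a gene was called at an adjusted p under 0.05. Of the 9 ligands 8 were tested. Among them 3 were called lower, where 12.5% of all tested genes were, and 1 was called higher, where 16.2% of all tested genes were. The median log2 fold change was -0.48 over the 8 ligands and 0.03 over all tested genes. In the same 4 ligands the groups did not overlap, 3 with aged libraries below and 1 with aged libraries above, against 18.3% and 22.5% of all tested genes. In cultures measured as a whole, fewer cells making a transcript and less of it per cell cannot be told apart.

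**Figure D1:**
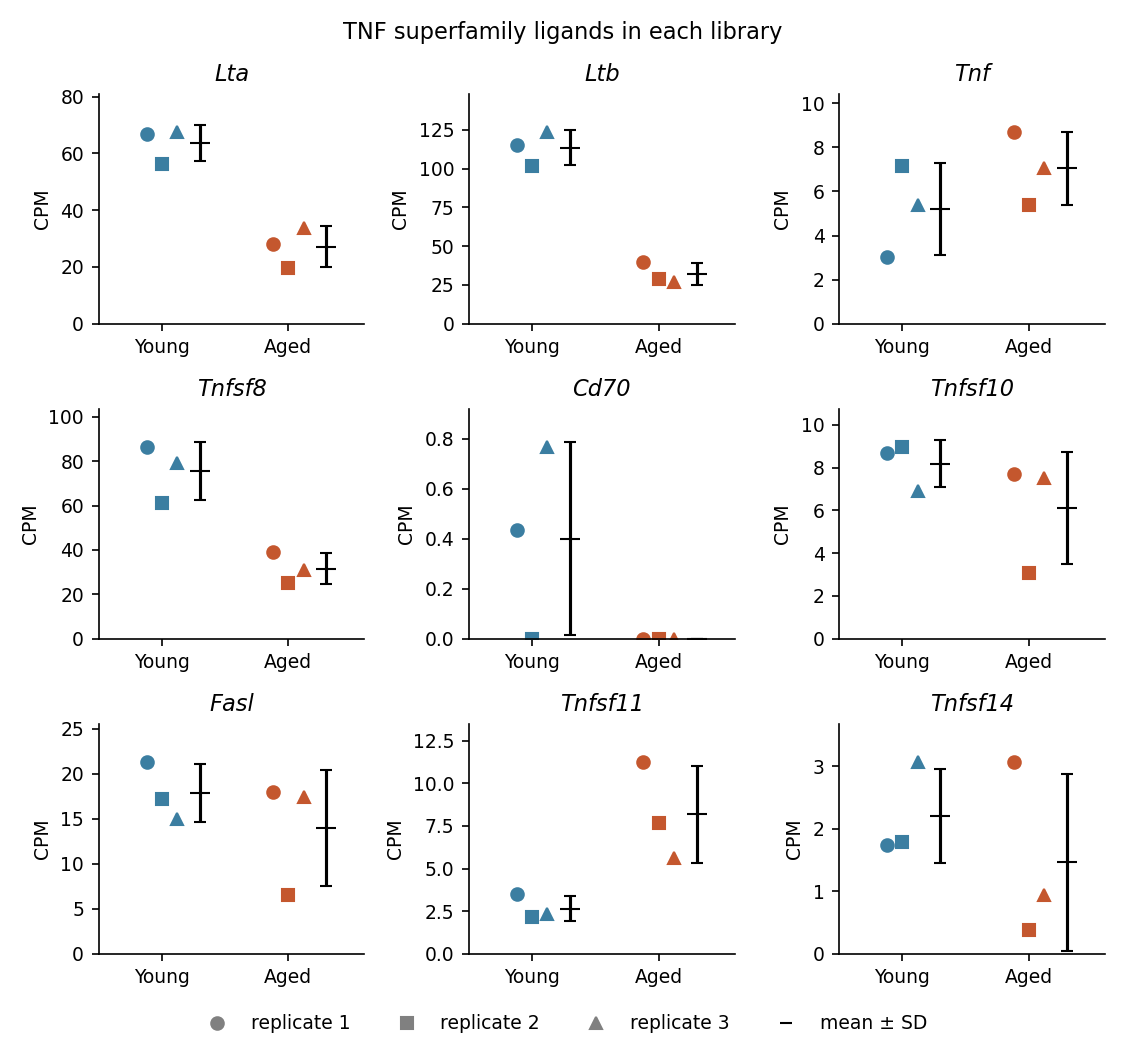
CPM of the 9 ligands (vertical axis, linear, from 0) in each Young and Aged library, with symbols for the replicates and the mean ± SD of 3 libraries beside them. Aged libraries lie below all young libraries for Lta, Ltb and Tnfsf8 and above them for Tnfsf11, and the groups overlap for Tnf, Tnfsf10, Fasl and Tnfsf14.

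Summed over the 9 genes, ligand transcripts measured 307, 257 and 304 CPM in replicates 1 to 3 of the young group and 156, 96.2 and 130 CPM in those of the aged group. The means were 289 ± 28.3 and 127 ± 29.8 CPM (SD, n = 3 per group), a 2.27-fold difference given as a description with no test. That difference lay in Lta, Ltb and Tnfsf8, which made up 85.5% to 89.0% of the sum in young libraries and 68.8% to 76.1% in aged libraries. The 6 remaining ligands together came to 36.5 ± 2.73 CPM in the young group and to 36.7 ± 12.9 CPM in the aged group. Among these 6 the aged libraries differed from each other, at 48.7, 23.0 and 38.6 CPM for Aged replicates 1, 2 and 3.

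**Figure D2:**
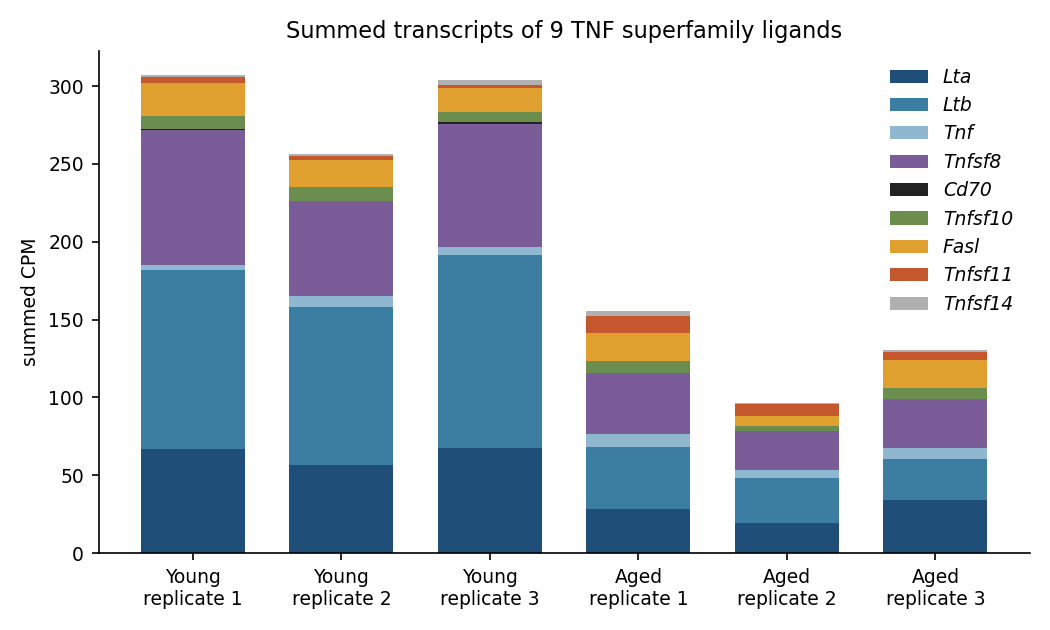
Summed CPM of the 9 ligands (vertical axis, from 0) in each of the 6 libraries, with bars divided by gene. The bars reach 257 to 307 CPM in young and 96.2 to 156 CPM in aged libraries, and the segments of Lta, Ltb and Tnfsf8 shrink most.

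In young cells the order of levels was Ltb, Tnfsf8, Lta, Fasl, Tnfsf10, Tnf, Tnfsf11, Tnfsf14 and Cd70. Neighbours in that order overlapped between Tnfsf8 and Lta and from Tnfsf10 down to Tnfsf14, while Ltb, Fasl and Cd70 stood clear of the genes next to them. In aged cells Ltb, Tnfsf8 and Lta had means of 31.8, 31.6 and 27.2 CPM and their ranges overlapped. Ltb exceeded Tnfsf8 in all 3 young libraries and in Aged replicates 1 and 2, and was below it in Aged replicate 3. Fasl followed at 14.0 CPM, then Tnfsf11, Tnf and Tnfsf10 at 8.19, 7.04 and 6.09 CPM. Their ranges overlapped, that of Fasl (6.52 to 17.9 CPM) included. Tnfsf11, in seventh place in young cells, had the fifth highest mean in aged cells.

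Lta, Tnf and Ltb lie next to each other in the class III region of the major histocompatibility complex. Lta (ENSMUSG00000024402, chromosome 17, 35203165 to 35205351, minus strand, GRCm38) encodes lymphotoxin alpha, which is secreted as a homotrimer or held at the membrane by lymphotoxin beta. Tnf (ENSMUSG00000024401, chromosome 17, 35199381 to 35202007, minus strand) lies 1157 bases from it and encodes TNF. Ltb (ENSMUSG00000024399, chromosome 17, 35194439 to 35196320, plus strand) lies 3060 bases further on and encodes lymphotoxin beta, the membrane anchor of the heterotrimer that binds the lymphotoxin beta receptor. No exon of any of the 9 ligands overlaps another gene's exon on either strand, and in no ligand do the last 300 transcript bases match another gene's over 75 bases at 95% identity or more.

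The sequences just upstream of these 3 starts are shown because 2 of the genes fell and the one between them did not, with those of Tnfsf8 and Tnfsf11, the remaining called ligands. They come from RefSeq (GRCm38.p6), where 8 of the 9 ligands have an entry. Lta is shown at chr17:35205352-35205601 (minus strand), Tnf at chr17:35202008-35202257 (minus strand), Ltb at chr17:35194257-35194438 (plus strand), Tnfsf8 at chr4:63861348-63861534 (minus strand) and Tnfsf11 at chr14:78308044-78308293 (minus strand). Each is written 5′ to 3′ on the gene's strand and holds up to 250 bases before the RefSeq start, ending where the GENCODE gene model begins if that lies further upstream. Capitals mark matches on either strand to the TATA box (TATAAA), an NF-kB motif (GGG and CC with 5 bases of any kind between them), an AP-1 motif (TGANTCA) or an NFAT motif (TGGAAA).
Lta: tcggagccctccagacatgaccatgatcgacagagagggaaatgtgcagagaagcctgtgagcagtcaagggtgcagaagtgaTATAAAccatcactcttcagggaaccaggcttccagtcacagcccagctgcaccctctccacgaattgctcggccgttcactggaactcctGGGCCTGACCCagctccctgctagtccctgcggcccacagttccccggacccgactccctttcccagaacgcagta
Tnf: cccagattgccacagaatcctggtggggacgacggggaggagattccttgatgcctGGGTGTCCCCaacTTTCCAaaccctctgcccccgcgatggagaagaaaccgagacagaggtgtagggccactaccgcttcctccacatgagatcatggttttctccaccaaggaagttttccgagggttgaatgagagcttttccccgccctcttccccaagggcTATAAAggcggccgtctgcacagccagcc
Ltb: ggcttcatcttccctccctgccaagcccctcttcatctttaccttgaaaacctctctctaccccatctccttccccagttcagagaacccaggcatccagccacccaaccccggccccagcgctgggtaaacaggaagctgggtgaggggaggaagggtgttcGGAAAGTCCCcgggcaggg
Tnfsf8: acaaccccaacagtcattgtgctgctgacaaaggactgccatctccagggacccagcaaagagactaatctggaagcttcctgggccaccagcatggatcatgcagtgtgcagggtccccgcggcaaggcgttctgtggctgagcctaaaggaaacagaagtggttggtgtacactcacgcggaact
Tnfsf11: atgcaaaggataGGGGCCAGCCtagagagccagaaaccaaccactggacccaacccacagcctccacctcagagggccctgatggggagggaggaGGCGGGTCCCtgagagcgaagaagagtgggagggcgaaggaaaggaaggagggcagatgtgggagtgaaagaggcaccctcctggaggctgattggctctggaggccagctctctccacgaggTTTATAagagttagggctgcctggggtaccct

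A TATAAA match lay 29 to 24 bases before the start of Tnf and 32 to 27 bases before that of Tnfsf11, and another 167 to 162 bases before that of Lta. The NF-kB motif matched once in Ltb (87 to 78 bases before the RefSeq start) and once in Tnf (194 to 185), while 2 overlapping matches stood in Lta and 2 separate ones in Tnfsf11. All positions are counted from the RefSeq start, and the stretch shown for Ltb ends upstream of it. The stretch shown for Tnfsf8 held none of the 4 motifs. Over windows of 250 bases, TATAAA was found in 3 of the 8 ligand promoters, against 12.4% of 32851 RefSeq promoters. The NF-kB motif was found in 6 of 8 against 45.8%, TGGAAA in 3 of 8 against 18.6%, and TGANTCA in 1 of 8 against 6.7%. The motifs can share bases with one another, and such a match describes letters only.

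Lta measured 67.0, 56.4 and 67.6 CPM in replicates 1 to 3 of the young group and 28.2, 19.6 and 33.9 CPM in those of the aged group. All aged libraries lay below all young ones, with Aged replicate 2 the lowest. It fell by 1.23 ± 0.17 (SE) on the log2 scale (limma adjusted p = 1.57e-05). Ltb was at 115, 102 and 124 CPM in the young libraries and at 39.9, 28.8 and 26.8 CPM in the aged libraries, again without overlap. It fell by 1.82 ± 0.14 (SE) on the log2 scale (limma adjusted p = 1.82e-08), the largest change among the ligands tested. The ratio of Ltb to Lta was 1.72 to 1.83 in young libraries and 1.42, 1.47 and 0.792 in Aged replicates 1, 2 and 3. In Aged replicate 3 Lta thus exceeded Ltb, which was so in no other library.

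Tnf was at 3.04, 7.18 and 5.38 CPM in the young libraries and at 8.71, 5.37 and 7.06 CPM in the aged libraries, and the groups overlapped. Its log2 fold change of 0.41 did not pass (limma adjusted p = 0.376), with a 95% interval of -0.26 to 1.09. That interval reaches neither of the log2 fold changes of its neighbours Lta and Ltb. With 7 to 20 Tnf reads per library, smaller changes were not detectable at this depth. The ratio of Lta to Tnf was 22.0, 7.85 and 12.6 in Young replicates 1, 2 and 3 and 3.24, 3.64 and 4.80 in Aged replicates 1, 2 and 3, a description chosen after the values were seen. Of the other listed neighbours on this stretch, 6 were tested, 1 fell and 2 rose, against 12.5% and 16.2% of all tested genes. Nfkbil1, next to Lta, was 1.66-fold lower in aged cells, at 29.3 ± 2.67 and 17.6 ± 5.94 CPM (limma adjusted p = 0.00853), and its exons overlap those of Atp6v1g2 and Gm16181 on the other strand, which leaves its value uncertain if the counting ignored strand. Ddx39b and Prrc2a, further out, were 1.26-fold and 1.27-fold higher (limma adjusted p = 0.00369 and 0.0245), and Prrc2a lost its call with DESeq2, limma-voom and edgeR (log2 fold changes of 0.29, 0.28 and 0.28) and when Young replicate 1, replicate 2 of the same group or Aged replicate 1 was left out (log2 fold changes of 0.28, 0.29 and 0.24). Lst1, on the other side of Ltb, Bag6 and Atp6v1g2 did not pass, although all aged libraries lay below all young ones for Lst1.

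**Figure D3:**
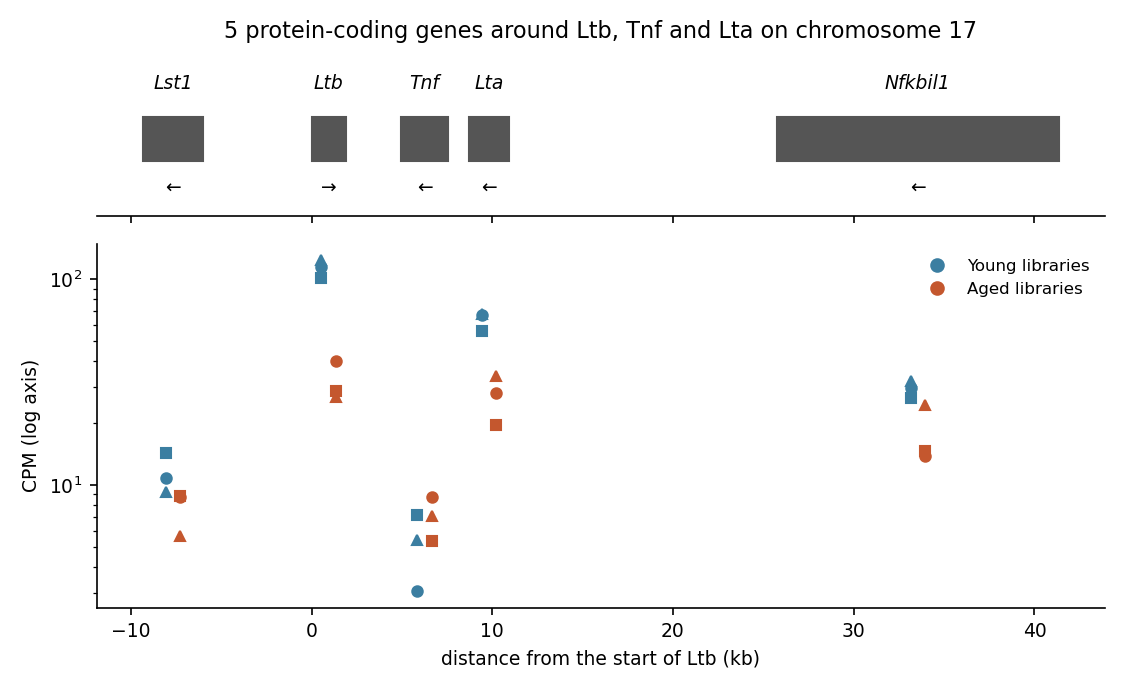
Top, gene bodies of 5 genes drawn to scale by distance in kb from the start of Ltb, with arrows for strand. Bottom, CPM on a log axis in the 3 Young and 3 Aged libraries for each gene (circles, squares and triangles are replicates 1, 2 and 3): aged libraries are lower for Ltb (26.8 to 39.9 against 102 to 124) and Lta (19.6 to 33.9 against 56.4 to 67.6) and overlap the young ones for Tnf between them. Aged libraries also lie below all young ones for Nfkbil1 (13.8 to 24.5 against 26.6 to 31.9), which was called, and Lst1 (5.65 to 8.82 against 9.22 to 14.4), which was not.

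The receptors of these 3 ligands did not pass the test or were too low for it. Tnfrsf1a, the death-domain receptor for TNF and lymphotoxin alpha, was at 17.9 to 27.7 CPM in young and 14.95 to 19.3 CPM in aged libraries (log2 fold change -0.49, limma adjusted p = 0.0727). Tnfrsf1b, the receptor of activated T cells that lacks a death domain, was at 88.4 to 91.5 and 72.5 to 82.5 CPM (-0.21, limma adjusted p = 0.111). The Tnfrsf1a libraries overlapped between the groups and those of Tnfrsf1b did not. Ltbr, the lymphotoxin beta receptor of stromal and myeloid cells, was at 0 to 0.359 CPM in young and 0 to 1.54 CPM in aged libraries and was not tested.

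Among the costimulatory ligands, Tnfsf8 fell while Cd70 was almost undetected. Tnfsf8 (ENSMUSG00000028362, chromosome 4, 63831308 to 63861347, minus strand) encodes CD30 ligand. It measured 86.5, 61.4 and 79.2 CPM in replicates 1 to 3 of the young group and 38.9, 24.9 and 31.1 CPM in those of the aged group. No aged library reached a young one, and replicate 2 was the lowest in each group. It fell by 1.24 ± 0.16 (SE) on the log2 scale (limma adjusted p = 7.56e-06). Its receptor CD30, encoded by Tnfrsf8, was at 41.3 to 68.4 CPM in young and 57.4 to 70.2 CPM in aged libraries and did not pass (log2 fold change 0.22, 95% interval -0.09 to 0.53, limma adjusted p = 0.306). The ligand had more reads than the receptor in all 3 young libraries and fewer in all 3 aged libraries. In Young replicate 2 the counts were close, at 171 reads of Tnfsf8 and 165 of Tnfrsf8.

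Cd70 (ENSMUSG00000019489, chromosome 17, 57145997 to 57149777, minus strand) encodes the ligand of the costimulatory receptor CD27. It had 1, 0 and 2 reads in the young libraries and 0 reads in each aged library. Summed over a group, these counts do not exceed 3 reads, which equal 0.39 CPM over the young group and 0.449 CPM over the aged group, so no fold is given. Cd27, in contrast, was well measured and 2.58-fold lower in aged cells, at 52.2, 40.9 and 49.95 CPM in the young and 19.5, 17.3 and 18.8 CPM in the aged libraries (log2 fold change -1.31 ± 0.15 (SE), limma adjusted p = 2.89e-06). An exon of Cd27 overlaps that of the microRNA gene Mir8113 on the same strand.

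Tnfsf14 (ENSMUSG00000005824, chromosome 17, 57189492 to 57194177, minus strand), which encodes LIGHT, lies 39714 bases from Cd70 and was also low. It had 4, 5 and 8 reads in the young libraries and 6, 1 and 2 reads in the aged libraries, or 1.74 to 3.07 and 0.383 to 3.07 CPM. The groups overlapped and its log2 fold change of -0.50 did not pass (95% interval -1.46 to 0.45, limma adjusted p = 0.454). Its receptor HVEM, encoded by Tnfrsf14, was at 0.359 to 0.869 CPM in young and 0 to 0.471 CPM in aged libraries and was not tested. The 3' end of Tnfrsf14 holds stretches near-identical to other genes, which leaves its value uncertain.

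The death ligands did not pass the test. Of the receptor genes taken with them here, Fas, Tnfrsf22 and Tnfrsf23 fell and Tnfrsf10b did not pass, where 12.5% of all tested genes fell. Tnfrsf11b, which encodes a soluble decoy receptor and is given below with Tnfsf11, rose and is not among them. Fasl (ENSMUSG00000000817, chromosome 1, 161780689 to 161788495, minus strand) encodes FAS ligand, a killing molecule of cytotoxic T cells. It measured 21.3, 17.2 and 14.99 CPM in replicates 1 to 3 of the young group and 17.9, 6.52 and 17.4 CPM in those of the aged group. Aged replicate 2 was low, and the other aged libraries lay within the young range. The log2 fold change was -0.44 (95% interval -1.04 to 0.16, limma adjusted p = 0.282), and without Aged replicate 2 it was 0.00043. Fas, which encodes the receptor, was 7.59-fold lower in aged cells, at 8.26 to 9.99 CPM in young and 0.471 to 1.54 CPM in aged libraries (log2 fold change -2.23 ± 0.35 (SE), limma adjusted p = 7.53e-05). With 3, 4 and 1 reads of Fas in the aged libraries, its fold is known only roughly. The ratio of Fasl to Fas was 1.5 to 2.58 in young libraries and 4.25 to 37.0 in aged libraries, where it rests on few Fas reads.

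Tnfsf10 (ENSMUSG00000039304, chromosome 3, 27317028 to 27342427, plus strand) encodes TRAIL, which kills cells that carry its death receptor. It was at 8.69, 8.97 and 6.92 CPM in the young libraries and at 7.68, 3.07 and 7.53 CPM in the aged libraries. As with Fasl, Aged replicate 2 was the lowest and the groups overlapped. Its log2 fold change of -0.45 did not pass (95% interval -1.11 to 0.21, limma adjusted p = 0.322) and was -0.09 without Aged replicate 2. Tnfrsf10b, the mouse death receptor for TRAIL, was at 15.2 to 20.4 CPM in young and 13.2 to 20.0 CPM in aged libraries and did not pass (limma adjusted p = 0.578), and its 3' end holds stretches near-identical to other genes. Tnfrsf22 and Tnfrsf23, mouse decoy receptors that bind TRAIL without a working death domain, were 3.02-fold and 4.49-fold lower in aged cells (limma adjusted p = 0.00412 and 1.15e-05). The 3' end of Tnfrsf23 is near-identical to that of Tnfrsf22, so reads could be divided between them. Their summed level was 26.1 to 28.0 CPM in young and 6.13 to 8.001 CPM in aged libraries, 3.86-fold lower. Tnfrsf26, a related receptor beside them on chromosome 7, was 3.75-fold lower, at 34.8 ± 6.83 and 9.28 ± 3.57 CPM (limma adjusted p = 7.24e-06). Exons of Tnfrsf23 and Tnfrsf26 overlap those of E230032D23Rik on the other strand.

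Tnfsf11 was the ligand that rose. It (ENSMUSG00000022015, chromosome 14, 78277445 to 78308043, minus strand) encodes RANKL, known for driving osteoclast formation and lymph node development through the receptor RANK. It measured 3.48, 2.15 and 2.31 CPM in replicates 1 to 3 of the young group and 11.3, 7.67 and 5.65 CPM in those of the aged group. Every aged library lay above every young one, with Aged replicate 3 the nearest to them. Its log2 fold change was 1.31 ± 0.33 (SE) with a limma adjusted p of 0.00541, and with a pseudocount of 5 it was 0.77 and still called. The young values rest on 6 to 8 reads and the aged values on 12 to 22, and the fold is known only roughly.

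Tnfrsf11b, which encodes osteoprotegerin, the soluble decoy receptor of RANKL, rose as well. It was at 1.74, 2.87 and 1.54 CPM in the young libraries and at 7.68, 15.7 and 14.6 CPM in the aged libraries, 6.18-fold higher (log2 fold change 2.13 ± 0.33 (SE), limma adjusted p = 7.27e-05). With 4, 8 and 4 reads of Tnfrsf11b in the young libraries, its fold is known only roughly. The ligand to decoy ratio was 0.75 to 2 in young and 0.387 to 1.47 in aged libraries and overlapped between the groups. In the young libraries it rests on few reads of both genes. Tnfrsf11a, which encodes RANK, was at 0 to 0.471 CPM in all 6 libraries and was not tested.

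**Figure D4:**
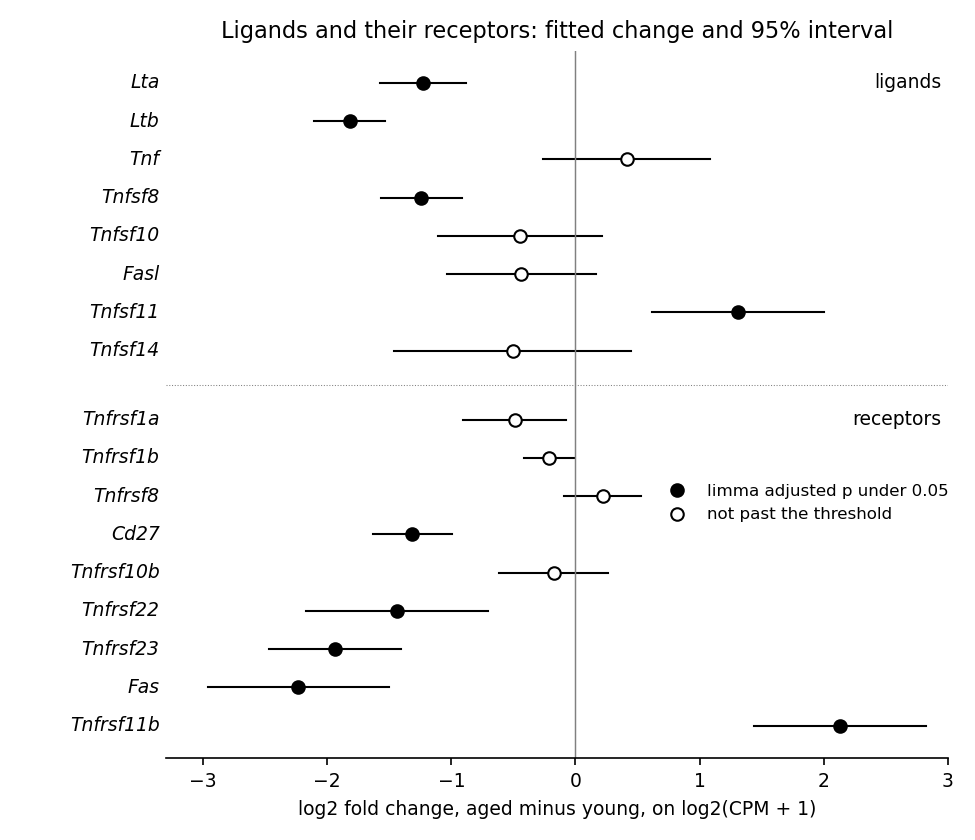
Log2 fold change, aged minus young on log2(CPM + 1), with 95% intervals from limma for the 8 tested ligands and the 9 tested receptors that bind them. Filled points passed the threshold: 3 ligands and 4 receptors lie to the left of 0, and Tnfsf11 and Tnfrsf11b to the right.

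Of the 12 receptors and decoys that bind the 9 ligands, 9 were tested, 4 fell, 1 rose and 4 did not pass, where 12.5% of all tested genes fell and 16.2% rose. Their median log2 fold change was -0.49, against 0.03 over all tested genes. The receptors of other ligands had 7 tested members, of which 3 fell, against the same 12.5%, with a median of -0.10. Besides Tnfrsf26 these were Tnfrsf13b, which encodes the BAFF and APRIL receptor TACI, 2.38-fold lower at 39.8 ± 1.51 and 16.7 ± 3.10 CPM, and Tnfrsf18, which encodes the costimulatory receptor GITR, 1.28-fold lower. Tnfrsf18 lost its call without Aged replicate 3 (log2 fold change -0.25), and its exons overlap those of Gm16008 on the other strand.

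The other 9 ligands of the family were low or undetected. Tnfsf9, which encodes the ligand of 4-1BB, was at 2.31 to 4.78 CPM in young and 2.56 to 3.83 CPM in aged libraries (limma adjusted p = 0.898). Cd40lg, the helper ligand best known from CD4 T cells, had 1 to 2 reads in young and 2 to 5 reads in aged libraries and did not pass (limma adjusted p = 0.22), although the groups did not overlap in CPM. Tnfsf4, which encodes OX40 ligand, was at 0.384 to 1.79 and 0 to 0.941 CPM, and Tnfsf13b, which encodes BAFF, at 0.359 to 1.54 and 0.383 to 0.512 CPM, and these were not tested. Tnfsf12 and Tnfsf15 had at most 1 read in a library, and Tnfsf13, Tnfsf18 and Eda had 0 reads in all 6. Tnfsf12 and Tnfsf13 share exons with the read-through gene Tnfsfm13, which leaves their values uncertain.

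Genes that signal for, process or control these ligands were counted in lists. Of 29 adaptors, ligases and kinases of TNF receptor signalling, all tested, 4 fell and 2 rose, with a median log2 fold change of -0.12. These counts are near or below the 12.5% and 16.2% of all tested genes that fell and rose, and the genes named next are single members of the list. Traf1, an adaptor induced by NF-kB, was 1.36-fold lower at 105 ± 11.6 and 77.2 ± 8.04 CPM (limma adjusted p = 0.00441). Among partners of the kinase TAK1, Tab2 was 1.22-fold lower (limma adjusted p = 0.00768) and Tab1 2.62-fold lower (limma adjusted p = 0.00982). Tab1 lost its call without Young replicate 2 or Aged replicate 2 (log2 fold changes of -1.13 and -0.92). Chuk, which encodes the kinase IKK alpha, was 1.53-fold higher (limma adjusted p = 0.0242) and lost its call when replicate 1 or 3 of the young group or Aged replicate 3 was left out (log2 fold changes of 0.61, 0.47 and 0.46). It also lost its call with DESeq2 and with all libraries thinned to the smallest total (0.56 and 0.37). The other called members, Tnip1 (lower) and Tab3 (higher), lost their calls in many settings. Tnip1 lost it with DESeq2 (log2 fold change -0.42), with thinning (-0.33), and with replicate 2 or 3 of the young group (-0.31 and -0.27) or replicate 1 or 2 of the aged group (-0.35 and -0.29) left out. Tab3 lost it with DESeq2 (0.96), with limma-voom (0.93), with no filter on low values (0.84), and with any single library except Aged replicate 1 left out (0.74 to 0.92).

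Of 9 genes of ligand cleavage 7 were tested and 1 fell, a share near the 12.5% of all tested genes. Frmd8, a cofactor of the sheddase ADAM17, was 1.301-fold lower (limma adjusted p = 0.00935). Its exons overlap those of Frmd8os on the other strand. Adam10, with the highest mean of that list over the 6 libraries, was at 86.1 to 97.6 CPM in young and 86.6 to 99.9 CPM in aged libraries and did not pass, and Adam17 was at 39.8 to 57.4 and 44.0 to 57.4 CPM. In the aged group Furin had a higher mean than Adam10, 94.6 CPM against 92.1 CPM.

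Of 11 RNA-binding proteins that act on AU-rich or stem-loop elements of cytokine transcripts, all tested, 3 rose, 2 fell and 6 did not pass, with a median log2 fold change of 0.30. Of all tested genes 16.2% rose and 12.5% fell, shares that 3 and 2 of 11 exceed by about 1 gene each. Hnrnpd, which encodes AUF1, was 1.70-fold higher at 227 ± 8.93 and 385 ± 8.77 CPM (limma adjusted p = 9.91e-08), and Elavl1, which encodes HuR, 1.48-fold higher (limma adjusted p = 0.000206). Khsrp was 1.26-fold higher. Zfp36l2 and Zfp36l1, destabilising proteins of the tristetraprolin family, were 1.58-fold and 1.78-fold lower (limma adjusted p = 3.13e-06 and 6.22e-05). Tristetraprolin itself, encoded by Zfp36, was at 6.82 to 8.69 CPM in young and 8.001 to 10.2 CPM in aged libraries and did not pass. Exons of Hnrnpd, Elavl1, Khsrp, Zfp36l1 and Zfp36l2 overlap exons of opposite-strand genes, and if strand was ignored in counting their values include those reads. The 3' end of Khsrp is near-identical to that of Gm8602.

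Of 20 transcription factors known to act on these ligand genes after stimulation, 16 were tested, 2 fell and 1 rose, with a median log2 fold change of -0.14. Among all tested genes 12.5% fell and 16.2% rose, so these counts do not stand above the background. Junb, an AP-1 subunit, was 1.54-fold lower at 268 ± 5.91 and 174 ± 7.61 CPM (limma adjusted p = 2.89e-06), and Nfatc3 1.25-fold lower (limma adjusted p = 0.000605). Fosl2, another AP-1 subunit, was 1.42-fold higher (limma adjusted p = 0.000275). Exons of Junb overlap those of Prdx2 on the other strand and those of Nfatc3 overlap Esrp2. The 5 NF-kB subunit genes (Nfkb1, Nfkb2, Rel, Rela and Relb) did not pass. Of 9 listed neighbours of the ligand genes outside the lymphotoxin cluster 5 were tested and did not pass (smallest limma adjusted p = 0.57).

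Ltb was the called ligand with the highest mean, and the genes whose profile over the 6 libraries was most like its own were Tmem71, Mxd4 and H2-Ab1. After centring each gene on its own mean of log2(CPM + 1), their root mean square difference from Ltb was 0.11, 0.14 and 0.14 among 7123 genes averaging 10 CPM or more. Tmem71 was at 81.7 to 97.6 CPM in young and 19.6 to 28.2 CPM in aged libraries, Mxd4 at 133 to 179 and 40.5 to 57.9 CPM, and H2-Ab1 at 54.6 to 57.3 and 15.5 to 18.4 CPM. H2-Ab1 is an MHC class II gene best known from antigen-presenting cells. As given above, some markers of such cells were lower in aged libraries, some were not lower and some were at 0 in every library. Whether such cells have a part in the likeness of H2-Ab1 to Ltb was not tested. The likeness is a description over 2 groups of 3 libraries.

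**Figure D5:**
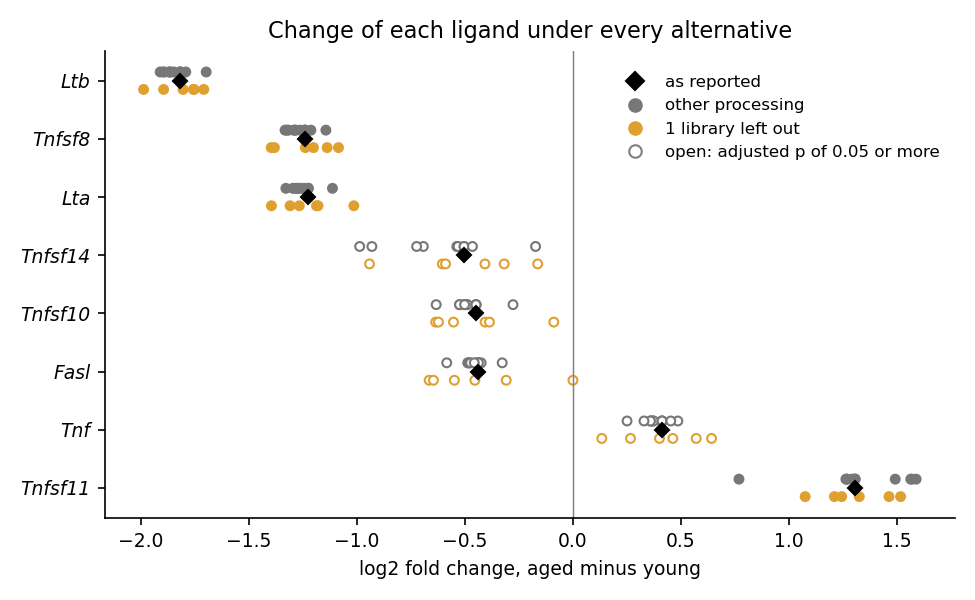
Log2 fold change of each tested ligand as reported (diamonds), under other processing (grey) and with 1 library left out (yellow), and open points mark an adjusted p of 0.05 or more. Lta, Ltb, Tnfsf8 and Tnfsf11 stay past the threshold in every setting, and Fasl reaches 0.00043 without Aged replicate 2.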

How the data were processed

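RNA of activated CD8 T cells was read in 6 libraries made with the QuantSeq 3' kit, per the labels' protocols. The build was GRCm38 (mm10), according to the submitters' processing notes. Which aligner, counter, strand setting and annotation were used is not given in the sources used here. CPM values were deposited by the authors, 1 file per library with 25655 Ensembl identifiers. Divided by the value of 1 read in its library, 100% of them came out whole to within 0.001, so whole reads were recovered. A single identifier is blank and was left out. The file of Aged replicate 2 heads its column as replicate 3, and it was taken as replicate 2 from the record that ties files to samples.

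Symbols came from a table of gene names, which matched 25600 identifiers, and positions from GENCODE M21. The test was limma 3.58.1 with an intensity trend (R 4.3.3), two-sided, on log2(CPM + 1), with genes of a mean of at least 1 CPM and age group as the sole term. It was tried on simulated data. Only genes with higher means than Tnf, Tnfsf10, Tnfsf11 and Tnfsf14 were changed there, so the trial does not cover such low genes. Fold values without a log2 scale are ratios of mean CPM, and log2 values understate changes of low genes. Transcript 3' ends were compared with blastn 2.17.0. Replicates within a group differed by a chi-square of 1.72 to 2.9 per degree of freedom over genes with at least 10 reads, and no 2 libraries held identical values. The members, the lists and the motifs were chosen with earlier results of these data known. The genes named were all ligands of the family, the receptors of the 9 ligands, up to 4 called members of every other list with the smallest p, marker genes, and the 3 genes most like Ltb. Other genes named were chosen after their values were seen. Alternatives were TMM, RLE and upper-quartile scaling, no filter or a mean of at least 5 CPM, pseudocounts of 0.1 and 5, DESeq2 1.42.0, limma-voom and edgeR 4.0.16 on recovered reads, a block for the replicate number, thinning every library to 1952552 reads, and leaving out each library.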

Additional observations from a re-analysis of the deposited data

How the results depend on the processing

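Lta, Ltb and Tnfsf8 stayed lower and Tnfsf11 higher, past the threshold, under all 18 alternatives. Their log2 fold changes ran from -1.40 to -1.01, from -1.99 to -1.70, from -1.40 to -1.09 and from 0.77 to 1.59. Tnf, Tnfsf10 and Tnfsf14 kept their direction and passed in none of the alternatives that tested them, 17 for Tnfsf14 and 18 for the others. Fasl turned from -0.44 to 0.00043 without Aged replicate 2, ran from -0.67 to that value over the libraries left out, and passed in none of the 18 (adjusted p of 0.125 to 0.999); the cause was not tested. The summed ligand level ran from 280 to 306 CPM in young and from 113 to 143 CPM in aged cells. Over all genes, 1701 were higher and 1313 lower. DESeq2 called 952 higher and 1017 lower, and the cause was not tested. TMM scaling gave 1432 higher and 1549 lower. Recovered whole reads (100% of values) gave 1443 and 1557 with edgeR. With the replicate number as a replicate block, 1725 genes were higher and 1336 lower, and the ligand calls were the same 3 and 1. Deviations of libraries with the same number correlated at 0.0209, 0.00025 and 0.0028, so the numbers were not taken to pair the libraries, and not every library correlated best with its own number. Among the genes listed, Tab3 lost its call under the block (log2 fold change 0.84, adjusted p = 0.0516). At these totals a ligand with fewer than 10 reads in every library, such as Tnfsf14 or Cd70, is beyond a firm statement. Tnfsf11 had 6 to 8 reads in the young libraries, and its call came nearer to the threshold in some settings. Its limma adjusted p was 0.0414 without Aged replicate 1, and its DESeq2 adjusted p was 0.0301.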
